A study of Mus musculus with 2 samples.

Results

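Mitochondria join and divide all the time, and damaged ones are removed by autophagy, a process called mitophagy. This section follows 10 nuclear genes of these processes in the retina of WT and ND6 mutant mice. *Opa1*, *Mfn1*, and *Mfn2* act in fusion, *Dnm1l*, *Fis1*, and *Mff* in fission, and *Pink1*, *Bnip3*, *Bnip3l*, and *Fundc1* in mitophagy. They were picked by symbol, with no measured value in the rule, and all 10 were found among the 32285 genes of the count tables, each with at least 20 UMIs (unique molecular identifiers, 1 per captured mRNA molecule) over both libraries, a minimum that 15888 genes passed.

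The data are 1 droplet-based 3′ scRNA-Seq library of a WT retina and 1 of an ND6 mutant retina, both from male C57BL/6J mice aged 7 months. The mutant mice carry the 13997 G>A mutation of mtDNA in the gene of ND6, a subunit of complex I, in homoplasmic form and in the whole body, and the line was kept by crossing mutant females with WT males, whereas WT mice were mated among themselves. No other allele and no treatment is given for either group, and whether a library came from 1 mouse or several is not stated in the labels. With a single library in each group, variation among mice cannot be estimated, and no significance test is given. All intervals given here are exact 95% intervals for counting error only, and molecules of 1 cell are not independent draws.

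A barcode was taken as a cell when it held more than 400 UMIs from more than 200 genes and when no more than 20% of them came from mtDNA. The limit on mtDNA-encoded UMIs removed 45.9% of WT and 17.3% of ND6 barcodes that met the other limits, which left 12529 WT cells with 54524401 UMIs and 18395 ND6 cells with 62949610 UMIs. The median depth was 1878 UMIs per WT cell and 1416 per ND6 cell, and 59 cell barcodes occurred in both libraries. Classes were named from markers, with the 10 genes left out of the clustering: rod-like (9760 WT and 13322 ND6 cells), cone-like (622 and 1116), bipolar-like (232 and 639), amacrine-like (77 and 298), Müller-like (37 and 88), macrophage/microglia-like (258 and 148), retinal pigment epithelium (RPE)-like (326 and 954), and red blood cells (260 and 572). A cluster led by *Nefl*, *Bc1*, and *Glul* (957 and 1258 cells) stayed unnamed, and no cluster met the rule for retinal ganglion cells or horizontal cells. The amacrine-like cluster also had 8 of the 9 markers of retinal ganglion cells raised at least 2-fold over the other cells. Whether ganglion cells are among its cells was not tested. The bipolar-like cells lay in 2 clusters and the macrophage/microglia-like cells in 2, with most cells of both libraries in the same one. The rod-like cells lay in 7 clusters, the largest being a different one in each library, and rod, cone, and bipolar markers were all detected in the classes named from them.

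As background, the outer membranes of 2 mitochondria are joined by the mitofusins MFN1 and MFN2, and the inner membranes by OPA1, a dynamin-like GTPase whose loss causes dominant optic atrophy. Fission is carried out by DRP1, the product of *Dnm1l*, which is drawn from the cytosol to receptors on the outer membrane such as MFF and FIS1. Mitophagy starts either from PINK1, a kinase that builds up on depolarized mitochondria, or from receptors in the outer membrane, BNIP3, BNIP3L (NIX), and FUNDC1, which bind LC3 proteins of the autophagosome directly. *Bnip3* and *Bnip3l* are known as hypoxia-induced genes, and BNIP3L is known for clearing mitochondria from maturing red blood cells.

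*Bnip3* was the gene that differed most between cell classes, so the sequence before its start is shown. *Bnip3* lies at chr7:138890836-138909519 on the minus strand of GRCm38 (mm10). The 250 bases upstream of its start in RefSeq (GRCm38.p6, chr7:138909507-138909756, minus strand) read 5′ to 3′ as follows, with capitals marking CACGTG, which holds ACGTG on both strands, a form of the core of the element bound by hypoxia-inducible factors.
Bnip3: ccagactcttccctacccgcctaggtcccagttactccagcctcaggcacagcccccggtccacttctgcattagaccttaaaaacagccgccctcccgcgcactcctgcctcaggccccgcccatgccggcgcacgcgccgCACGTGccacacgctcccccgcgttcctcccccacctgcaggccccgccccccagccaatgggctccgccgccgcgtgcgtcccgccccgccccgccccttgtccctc
ACGTG, searched on both strands, was in the same 250 bases of 16.6% of the 32851 mouse promoter windows and CACGTG in 6.02%. Of the 9 genes with a window (*Bnip3l* had none in the table), 2 held ACGTG, *Bnip3* and, in 1 of its windows, *Mfn2*, and only *Bnip3* held CACGTG. Other forms of the core were not searched or marked. A match of letters is a description and not a binding site.

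Over all cells, 6 of the 10 genes were higher in the ND6 library beyond counting error, *Opa1*, *Mfn2*, *Fis1*, *Pink1*, *Bnip3*, and *Bnip3l*, and *Dnm1l* and *Mff* were lower, all by small amounts. Of all 15888 genes, 37.9% were higher and 28% lower by the same rule. With no mtDNA limit the log2 ratio of *Dnm1l* was -0.02, and the signs of all 8 held under every alternative run. Levels are given as CPM, the UMIs of a gene as a share of all UMIs of the cells summed, scaled to 1e6. The log2 ratios of ND6 over WT CPM ran from -0.13 to 0.35, with a median of 0.18, where the median of the 15888 genes was 0.07. None of the 10 reached a log2 ratio of 0.5 in size, a size reached by 30.3% of all genes. The same held in rod-like cells (27.9% of all genes), cone-like cells (20.4%), bipolar-like cells (24.3%), and RPE-like cells (26.8%), in each of which the count among the 10 was 0. Such shares of all genes, here and below, include genes with as few as 20 UMIs, whose ratios carry more counting error. Over all cells the least counted of the 10 held 1370 UMIs in WT and 1479 in ND6. The shares were not matched for this, so they do not show that the 10 were more stable than other genes.

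**Figure D1:**
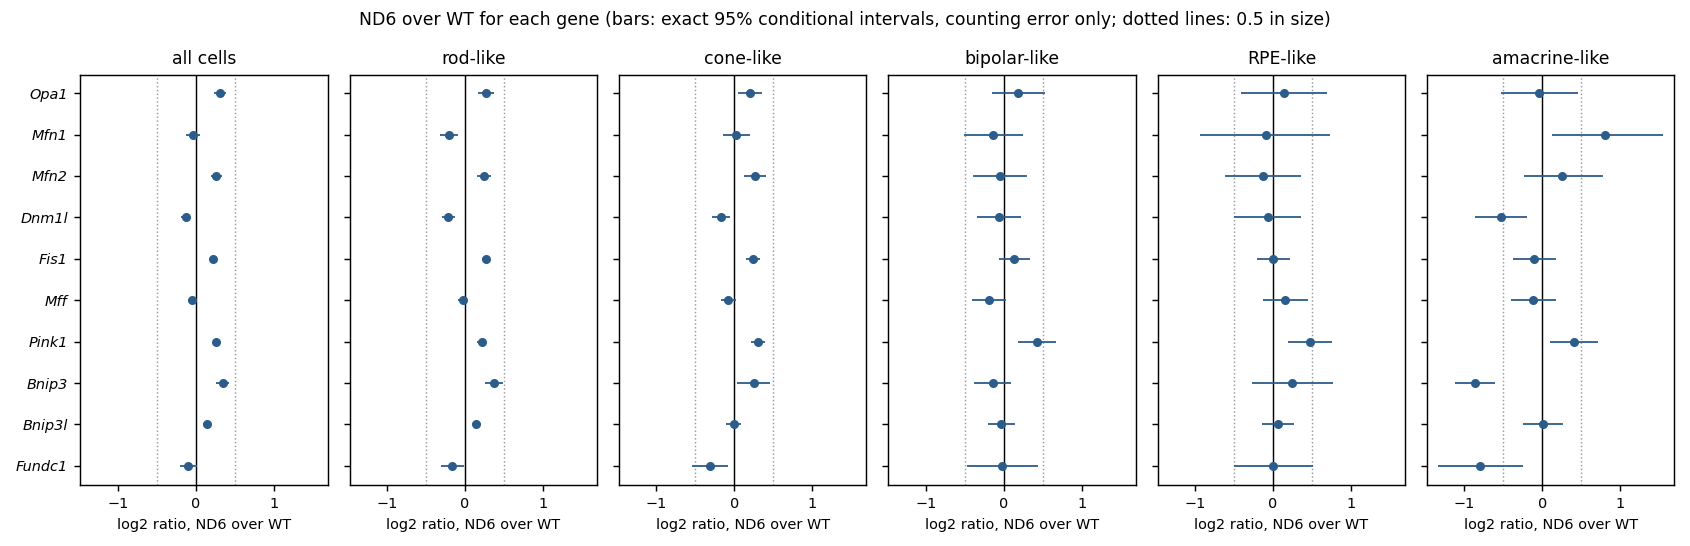
Log2 ratio of ND6 over WT CPM for each of the 10 genes (vertical axis) over all cells and in 5 cell classes, with exact 95% intervals for counting error and dotted lines at 0.5 in size. All points stay between the dotted lines except in amacrine-like cells, where *Bnip3* (-0.86), *Fundc1* (-0.80), and *Dnm1l* (-0.53) lie below and *Mfn1* (0.81) above.

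Of the fusion genes, *Opa1* (ENSMUSG00000038084, chr16:29579334-29654884, plus strand) and *Mfn2* (ENSMUSG00000029020, chr4:147873599-147904704, minus strand) were higher in the ND6 library, and *Mfn1* (ENSMUSG00000027668, chr3:32529465-32579239, plus strand) was not. *Opa1* stood at 42.8 CPM (95% interval 41.1 to 44.5) in the WT library and 52.8 CPM (51.0 to 54.6) in the ND6 library, a log2 ratio of 0.30 (0.23 to 0.38). *Mfn2* stood at 51.1 CPM (49.2 to 53.0) in WT and 61.3 CPM (59.3 to 63.2) in ND6, a log2 ratio of 0.26 (0.19 to 0.33). *Mfn1* stood at 37.8 CPM (36.1 to 39.4) and 36.9 CPM (35.4 to 38.4), a log2 ratio of -0.03 whose interval of -0.12 to 0.05 held 0 and whose sign turned with no mtDNA limit (0.08). The intervals of the 2 libraries did not overlap for *Opa1* or *Mfn2* and overlapped for *Mfn1*.

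In photoreceptors *Opa1* and *Mfn2* were again higher in ND6. In rod-like cells the log2 ratios were 0.26 (0.16 to 0.36) for *Opa1*, 0.24 (0.15 to 0.34) for *Mfn2*, and -0.20 (-0.32 to -0.09) for *Mfn1*, the 2 mitofusins lying on opposite sides of 0. In cone-like cells they were 0.20 (0.04 to 0.35), 0.26 (0.12 to 0.41), and 0.03 (-0.15 to 0.20). The difference between rod-like and cone-like cells in *Mfn1* was not tested.

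Between classes, *Mfn1* varied the most of the fusion genes. It was lowest in RPE-like cells, at 15.6 CPM (10.4 to 22.5) in WT and 14.6 CPM (9.45 to 21.5) in ND6, against 37.8 and 32.8 CPM in rod-like cells. That is a log2 ratio of RPE-like over rod-like cells of -1.28 (-1.87 to -0.74) in WT and -1.17 (-1.80 to -0.60) in ND6, and *Mfn1* was the only one of the 10 past 1 in the same direction in both libraries in RPE-like cells, against 21.3% of all genes. With each cell weighted equally the ratio was -0.60 in WT and -0.78 in ND6, no longer past 1. Low levels were not particular to RPE-like cells: rod clusters with little *Malat1*, a nuclear RNA, had *Mfn1* at 15.3 to 30.1 CPM. *Malat1* made up 1.09% of UMIs in WT and 1.36% in ND6 RPE-like cells, against 3.33% and 2.73% in rod-like cells. Its part in the ratio was not tested. *Opa1* was higher in cone-like than in rod-like cells in both libraries, at 52.7 against 40.8 CPM in WT and 60.5 against 48.9 CPM in ND6, with intervals that did not overlap. *Mfn2* was likewise higher in cone-like than in rod-like cells, at 59.1 against 49.2 CPM in WT and 70.7 against 58.3 CPM in ND6. Cone-like cells had median depths of 7892 UMIs in WT and 7663 in ND6, and rod-like cells 1796.5 and 1350. In the deepest rod cluster (9273.5 and 8239 UMIs) *Opa1* was at 48.5 and 56.5 CPM and *Mfn2* at 52.8 and 65.5 CPM. The part of depth and of the mixture of rod clusters was not tested. For both genes the intervals of amacrine-like and bipolar-like cells overlapped each other in WT.

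Of the fission genes, *Fis1* (ENSMUSG00000019054, chr5:136953275-136966234, plus strand) was higher in the ND6 library and *Dnm1l* (ENSMUSG00000022789, chr16:16312230-16358959, minus strand) lower. *Fis1*, a small tail-anchored protein of the outer membrane, stood at 178.6 CPM (175.1 to 182.2) in WT and 207.5 CPM (204.0 to 211.1) in ND6, a log2 ratio of 0.22 (0.18 to 0.25). *Dnm1l* stood at 78.1 CPM (75.7 to 80.4) in WT and 71.2 CPM (69.2 to 73.3) in ND6, a log2 ratio of -0.13 (-0.19 to -0.07). *Mff* (ENSMUSG00000026150, chr1:82724890-82752394, plus strand), the main receptor for DRP1, stood at 143.1 CPM (140.0 to 146.4) and 138.6 CPM (135.7 to 141.5), and its log2 ratio of -0.05 was next to 0. Exons of *Dnm1l*, *Mff*, and *Bnip3* overlap exons of antisense genes (*Gm49521*, *C430014B12Rik*, and *Gm45507*) on the opposite strand, which held 5, 60, and 1 UMIs in WT cells and 3, 107, and 6 in ND6 cells. Without the strand setting of the counting, reads of these pairs cannot be told apart.

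The split between *Fis1* and *Dnm1l* was also present in both photoreceptor classes. In rod-like cells *Fis1* went from 182.4 CPM in WT to 219.1 CPM in ND6, a log2 ratio of 0.26 (0.22 to 0.31), and *Dnm1l* from 72.6 to 62.5 CPM, a log2 ratio of -0.22 (-0.30 to -0.13). In cone-like cells the log2 ratios were 0.24 (0.15 to 0.33) for *Fis1* and -0.18 (-0.29 to -0.06) for *Dnm1l*, and that of *Fis1* was 0.06 with each cell weighted equally. *Mff* stayed within counting error in both, at -0.03 (-0.09 to 0.03) and -0.08 (-0.18 to 0.02).

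*Dnm1l* was highest in amacrine-like cells in both libraries, at 165.8 CPM (137.6 to 197.9) in WT and 114.5 CPM (99.6 to 131.1) in ND6, followed by cone-like cells at 99.5 and 88.1 CPM. The intervals of amacrine-like and cone-like cells did not overlap in either library. *Fis1* and *Mff* varied little between classes. *Fis1* spanned a 1.55-fold range over the 8 classes in WT and 1.94-fold in ND6, with Müller-like cells lowest in both, and *Mff* a 2.03-fold and a 1.58-fold range.

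**Figure D2:**
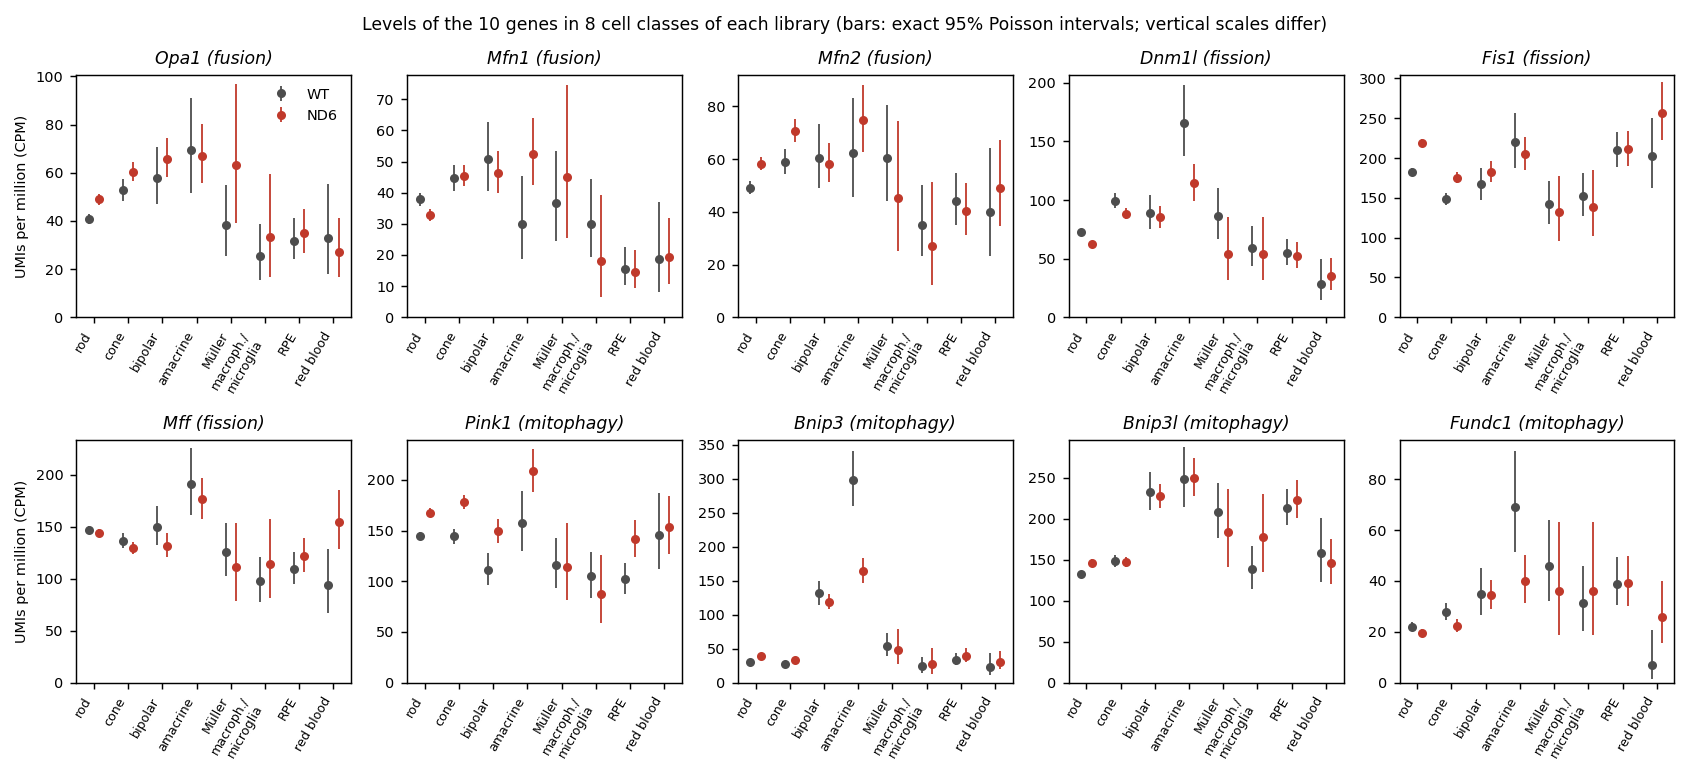
Levels of the 10 genes in CPM (vertical axes, linear, scaled per gene) in 8 cell classes of the WT and the ND6 library, with exact 95% Poisson intervals. *Bnip3* is highest in amacrine-like cells (299 CPM in WT and 164 CPM in ND6) and next in bipolar-like cells (131 and 119 CPM), and *Mfn1* is lowest in RPE-like cells (15.6 and 14.6 CPM).

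Of the mitophagy genes, the kinase *Pink1* (ENSMUSG00000028756, chr4:138313409-138326307, minus strand) was higher in the ND6 library in rod-like, cone-like, bipolar-like, and amacrine-like cells, and in free RNA. Over all cells it stood at 142.1 CPM (138.9 to 145.3) in WT and 170.5 CPM (167.3 to 173.7) in ND6, a log2 ratio of 0.26 (0.22 to 0.31). By class the log2 ratio was 0.21 (0.16 to 0.27) in rod-like, 0.30 (0.21 to 0.40) in cone-like, 0.42 (0.19 to 0.67) in bipolar-like, and 0.41 (0.10 to 0.72) in amacrine-like cells, where it was -0.11 with each cell weighted equally. In the barcodes of 10 to 100 UMIs, taken as free RNA, *Pink1* stood at 119.4 CPM (78.7 to 173.7) in WT and 208.1 CPM (165.2 to 258.6) in ND6, and its part in the differences was not tested. The bipolar-like cells of the libraries also differed in markers, with bipolar markers summing to 9647 CPM in WT and 6902 CPM in ND6 (13 of 13 in both), Müller markers to 647 and 1890 CPM (11 of 11), and RPE markers to 179 and 559 CPM (9 and 8 of 10), and the part of these was not tested either. In RPE-like cells *Pink1* went from 101.9 CPM (87.7 to 117.8) in WT to 141.3 CPM (124.1 to 160.3) in ND6, a log2 ratio of 0.47 (0.19 to 0.76), which was 0.09 with each cell weighted equally. The RPE-like cells had median depths of 2455 UMIs in WT and 1114 in ND6 and rod markers at 28870 and 37965 CPM, whose part in this was not tested. The intervals held 0 in Müller-like cells (-0.60 to 0.55), macrophage/microglia-like cells (-0.92 to 0.36), and red blood cells (-0.38 to 0.54), all with few UMIs.

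The receptor genes differed from each other. *Bnip3* (ENSMUSG00000078566) stood at 37.4 CPM (35.8 to 39.1) over all WT cells and 47.6 CPM (45.9 to 49.3) over all ND6 cells, a log2 ratio of 0.35 (0.27 to 0.43). Since *Bnip3* was much higher in amacrine-like and bipolar-like cells, whose share of cells also was higher in the ND6 library (0.615% against 1.62% for amacrine-like and 1.85% against 3.47% for bipolar-like cells), the values within a class are given beside it. Within rod-like cells *Bnip3* went from 30.4 to 39.3 CPM, a log2 ratio of 0.37 (0.25 to 0.48), and within cone-like cells from 27.9 to 33.2 CPM, a log2 ratio of 0.25 (0.04 to 0.46). In free RNA *Bnip3* stood at 39.8 CPM (18.2 to 75.5) from 9 UMIs in WT and 56.5 CPM (35.4 to 85.6) from 22 UMIs in ND6, so its level in rod-like cells was not above that of free RNA in either library.

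*Bnip3l* (ENSMUSG00000022051, chr14:66985239-67008877, minus strand) stood at 144.1 CPM (140.9 to 147.3) in WT and 158.8 CPM (155.7 to 162.0) in ND6, a log2 ratio of 0.14 (0.10 to 0.18), and the ratio was also 0.14 in rod-like cells. In cone-like cells it was -0.01 (-0.10 to 0.08), and 0.20 with each cell weighted equally. Its intervals also held 0 in bipolar-like, amacrine-like, and RPE-like cells. *Fundc1* (ENSMUSG00000025040, chrX:17556564-17572325, minus strand) was the least counted of the 10, with 1370 UMIs in WT and 1479 in ND6. Its level was 25.1 CPM (23.8 to 26.5) and 23.5 CPM (22.3 to 24.7), a log2 ratio of -0.10 (-0.20 to 0.01), and 0.05 with each cell weighted equally. It was lower in ND6 within rod-like cells, with a log2 ratio of -0.16 (-0.31 to -0.02), and within cone-like cells, with -0.32 (-0.55 to -0.09).

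Across cell classes, *Bnip3* stood apart from the other 9 genes. In the WT library it was at 298.9 CPM (260.7 to 341.1) in amacrine-like cells, 131.3 CPM (114.6 to 149.7) in bipolar-like cells, and 53.9 CPM (38.7 to 73.2) in Müller-like cells, and at 23.5 to 33.4 CPM in the other 5 classes. In the ND6 library it was at 164.1 CPM (146.1 to 183.8), 118.8 CPM (108.5 to 129.9), and 48.2 CPM (27.6 to 78.3) in the same classes, and at 27.1 to 39.7 CPM in the other 5. The first 3 places were the same in both libraries, and amacrine-like and bipolar-like cells differed from each other and from all other classes beyond counting error.

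Against rod-like cells, *Bnip3* was higher in amacrine-like cells by a log2 ratio of 3.30 (3.08 to 3.51) in WT and 2.06 (1.88 to 2.24) in ND6, and in bipolar-like cells by 2.11 (1.89 to 2.32) and 1.60 (1.44 to 1.75). It was the only one of the 10 past 1 in bipolar-like cells, against 18.5% of all genes. In amacrine-like cells *Fundc1* was also past 1, by 1.65 (1.21 to 2.06) in WT and 1.02 (0.65 to 1.36) in ND6, so that 2 of the 10 were, against 25.6% of all genes, and the ND6 ratio of *Fundc1* was 0.64 with each cell weighted equally. None of the 10 was past 1 in both libraries in cone-like cells (5.61% of all genes), Müller-like cells (18.9%), macrophage/microglia-like cells (22.2%), red blood cells (23.7%), or the unnamed cluster (8.29%).

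Both bipolar clusters carried the *Bnip3* level. The smaller cluster, led by *Pcp2*, *Trpm1*, and *Car8*, stood at 172.5 CPM (133.4 to 219.4) in WT and 183.6 CPM (137.5 to 240.2) in ND6. The larger one, led by *Cabp5*, *Gng13*, and *Gsg1*, stood at 119.2 CPM (101.2 to 139.5) and 113.9 CPM (103.5 to 125.2). In ND6 these intervals did not overlap, and in WT they did. ND6 and WT did not differ beyond counting error in either cluster, with log2 ratios of 0.09 (-0.46 to 0.63) and -0.07 (-0.33 to 0.21).

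At equal depth, the share of cells with a *Bnip3* UMI was higher in amacrine-like than in rod-like cells. Between the libraries the amacrine-like shares were close. The WT share rests on 5 cells, and its interval is too wide to show whether the libraries differ as the CPM did. With every cell thinned to 400 UMIs, 6.49% (2.14% to 14.5%) of WT and 6.71% (4.15% to 10.2%) of ND6 amacrine-like cells had a *Bnip3* UMI (5 and 20 cells), against 1.32% (1.10% to 1.57%) and 1.49% (1.29% to 1.71%) of rod-like cells. In red blood cells, which lose their mitochondria as they mature, the thinned share was 1.54% in WT and 1.57% in ND6. Their barcodes held rod markers at 70722 and 76328 CPM, near the 75573 and 76566 CPM of rod-like cells, so they give no background free of rod RNA. Without thinning, the shares were 77.9% and 43.6% in amacrine-like cells, with median depths of 7562 and 3986.5 UMIs, and 9.01% and 8.82% in rod-like cells, with median depths of 1796.5 and 1350 UMIs. Of the 10 genes, 7 had over all cells a higher thinned share in ND6, and 2 a higher share without thinning, where the WT cells were deeper. Among the 7, the thinned intervals of the libraries were apart only for *Opa1* and *Mfn2*. Thinned shares of all genes were not computed, and by CPM 56.7% of all genes were higher in ND6.

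*Bnip3l*, which shares its domain structure with *Bnip3*, had a flatter pattern. It stood at 248.6 and 249.8 CPM in amacrine-like cells, 232.4 and 227.4 CPM in bipolar-like cells, and 213.3 and 223.0 CPM in RPE-like cells of the WT and ND6 libraries. These 3 classes lay above rod-like cells (132.5 and 146.3 CPM) and cone-like cells (148.4 and 147.4 CPM) beyond counting error in both libraries. In RPE-like cells *Bnip3l* was thus high where *Bnip3*, at 33.4 and 39.7 CPM, was near its level in rod-like cells.

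In amacrine-like cells, 4 of the 10 genes had a log2 ratio of ND6 over WT past 0.5 in size, against 35.4% of all genes there. *Bnip3* was lower, at 220 UMIs in 77 WT cells and 301 UMIs in 298 ND6 cells, or 298.9 and 164.1 CPM. Its log2 ratio was -0.86 (-1.12 to -0.61), and -1.16 with each cell weighted equally. *Fundc1* went from 69.3 CPM (51.6 to 91.1) to 39.8 CPM (31.2 to 50.1), a log2 ratio of -0.80 (-1.34 to -0.25), and *Dnm1l* had a log2 ratio of -0.53 (-0.86 to -0.20), which was -0.21 with each cell weighted equally. *Mfn1* was higher, at 29.9 CPM (18.7 to 45.3) from 22 UMIs in WT and 52.4 CPM (42.4 to 63.9) from 96 UMIs in ND6, a log2 ratio of 0.81 (0.13 to 1.55). With each cell weighted equally that of *Mfn1* was 2.25, and with the call on ranked barcodes 0.13.

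The amacrine-like cells of the 2 libraries were not alike in other measures. Their markers of retinal ganglion cells summed to 1905 CPM in WT and 883 CPM in ND6 (9 of 9 detected in both), rod markers to 17394 and 24180 CPM (10 of 10 in both), and Müller markers to 1098 CPM (10 of 11) and 2439 CPM (11 of 11). Cells with UMIs of neither *Gad1* or *Gad2*, the GABA-synthesizing enzymes, nor *Slc6a9*, the glycine transporter, made up 3.90% of WT and 30.5% of ND6 amacrine-like cells, and in ND6 they held 30 of the 96 *Mfn1* UMIs at a median depth of 1369 UMIs. The part of the marker sums in the values of *Bnip3*, *Fundc1*, *Dnm1l*, and *Mfn1* was not tested. Among cells with *Slc6a9* but no *Gad1* or *Gad2* UMI (53 WT and 108 ND6 cells, a subset chosen after the values were seen), *Bnip3* was at 286.8 CPM (241.3 to 338.4) in WT and 202.9 CPM (171.4 to 238.7) in ND6, a log2 ratio of -0.50 (-0.84 to -0.15). The ratio for *Bnip3* was -0.71 (-1.19 to -0.23) among cells with UMIs of both kinds (17 and 47 cells) and -1.95 (-2.87 to -0.91) among those with *Gad1* or *Gad2* only (4 and 52 cells), below 0 in all 3 subsets. In the *Slc6a9* subset the intervals of *Mfn1* (-0.14 to 1.95), *Dnm1l* (-0.81 to 0.16), and *Fundc1* (-1.09 to 0.44) held 0. In cells with both kinds *Dnm1l* was at -0.92 (-1.52 to -0.31) and *Fundc1* at -1.43 (-2.44 to -0.44), while *Mfn1* was at -1.12 (-2.54 to 0.30), opposite in sign to its value over the class. The 5 of 77 WT amacrine-like cells with the most *Bnip3* held 31.4% of its UMIs in that class, and the 5 such of 298 ND6 cells 12.96%. Since 5 cells are a larger part of the WT cells, these percentages cannot be set against each other. With no limit on mtDNA-encoded UMIs, which gave 129 WT and 406 ND6 amacrine-like cells, the log2 ratio of *Bnip3* was -0.19. In that clustering the amacrine-like cluster also raised all 11 Müller markers, as it did with joint scaling. The part of these markers in the value was not tested.

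The remaining classes held few UMIs of each gene, and the Müller-like cells also differed in depth, with medians of 10329 UMIs in WT and 1638 in ND6. In Müller-like cells 2 of the 10 were past 0.5 in size, *Opa1* at 0.73 and *Dnm1l* at -0.68, and in macrophage/microglia-like cells 1, *Mfn1* at -0.73, against 37.8% and 39.1% of all genes, and all 3 intervals held 0. In red blood cells 2 were past 0.5, *Fundc1* at 1.87 (0.12 to 4.26), which rests on 3 UMIs in WT and 20 in ND6, and *Mff* at 0.72 (0.19 to 1.27), against 36.2% of all genes, in barcodes that held rod RNA as given above. In the unnamed cluster led by *Nefl*, *Bc1*, and *Glul*, 4 were past 0.5, against 40.8% of all genes: *Opa1* at 1.02 (0.57 to 1.49), *Mfn1* at 0.88 (0.38 to 1.41), *Fundc1* at 0.67 (0.17 to 1.19), and *Mfn2* at 0.55 (0.20 to 0.92). The median of all genes in that cluster was 0.29, its *Malat1* share was 1.55% in WT and 2.36% in ND6, and its share of mtDNA-encoded UMIs was 13.9% and 11.7%.

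The limit on mtDNA-encoded UMIs removed unequal shares of the libraries, so the removed barcodes were also summed. In the 10647 WT and 3861 ND6 barcodes above 20%, 4 of the 10 were past 0.5, all higher in ND6, against 51.3% of all genes. *Pink1* had a log2 ratio of 0.70 (0.59 to 0.81), *Bnip3* 0.67 (0.44 to 0.90), *Opa1* 0.65 (0.36 to 0.94), and *Fundc1* 0.64 (0.35 to 0.92). The median of all genes in these barcodes was 0.35. With these barcodes kept, the log2 ratios over all cells were 0.41 for *Opa1* and 0.21 for *Bnip3l*, both higher than with the limit, and the median of all genes was 0.17.

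The rod-like cells were a mixture of clusters with much and little *Malat1*, an RNA that stays in the nucleus, and several of the 10 genes differed between them. *Malat1* made up 0.134% to 0.532% of UMIs in 4 rod clusters and 3.47% to 8.76% in the other 3. *Fis1* was at 237 to 301 CPM in the 4 clusters with little *Malat1* and at 103 to 223 CPM in the 3 with much, without overlap in either library. *Mfn1* went the other way, at 15.3 to 30.1 CPM and 31.3 to 50.5 CPM, as did *Dnm1l*, at 40.5 to 59.3 CPM and 65.9 to 85.6 CPM. *Opa1* and *Bnip3l* were also higher in the clusters with much *Malat1* within each library. *Mff* did not separate the clusters, with 130 to 157 CPM in the former and 138 to 157 CPM in the latter.

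**Figure D3:**
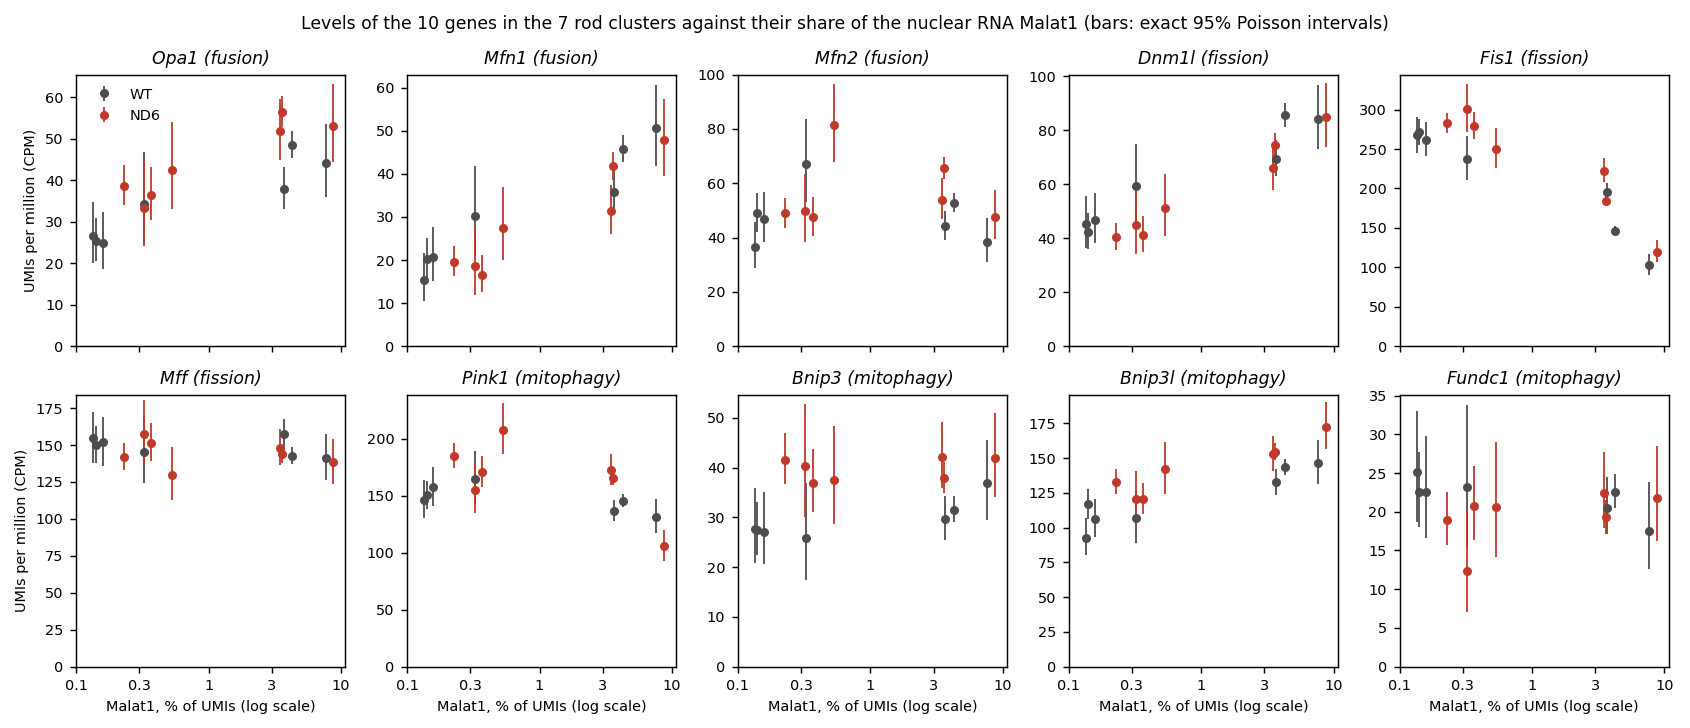
Levels of the 10 genes in CPM (vertical axes, linear) in each of 7 rod clusters of the WT and the ND6 library against the share of UMIs from *Malat1* (horizontal axis, log scale), with exact 95% Poisson intervals. *Fis1* is lowest where *Malat1* is highest (103 CPM in WT and 120 CPM in ND6), and *Mfn1* and *Dnm1l* are higher in the 3 clusters with *Malat1* at 3.47% or above.

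Within these clusters, ND6 was higher than WT in 7 of 7 for *Opa1*, *Mfn2*, *Fis1*, *Bnip3*, and *Bnip3l*, and in 6 of 7 for *Pink1*. It was lower in 6 of 7 for *Mfn1* and *Dnm1l* and in 5 of 7 for *Mff* and *Fundc1*. Of all genes, 47.6% to 68.0% were higher in ND6 within the single clusters, with medians of -0.02 to 0.19. The share of all genes higher in 7 of 7 was not counted. Intervals held 0 in every cluster for *Mfn1* and *Mff*, and in all but the deepest for *Dnm1l*. They held 0 in most clusters for *Mfn2*, *Fis1*, *Bnip3*, and *Fundc1*, and did not in most for *Opa1*, *Pink1*, and *Bnip3l*. The clusters come from the same pair of libraries and are not replicates. The log2 ratio of *Bnip3* ran from 0.19 to 0.60 over the clusters, that of *Opa1* from 0.22 to 0.61, and that of *Fis1* from 0.06 to 0.33. That of *Mfn2* ran from 0.002 to 0.44. The exception for *Pink1* was the cluster with the most *Malat1*, at -0.32 (-0.56 to -0.07). Rod-like cells as a whole had 3.33% *Malat1* in WT and 2.73% in ND6, and 8.69% and 7.39% of their UMIs came from mtDNA.

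The profile of each gene over 8 classes in 2 libraries (16 profiles) was compared with those of 10207 other genes by Pearson's r of log2(CPM + 10), as a description of profiles that share libraries and classes. Nearest to *Bnip3* were *Cend1* (r = 0.98), *Nebl* (0.98), and *Map7d2* (0.97). Nearest to *Fis1* were *Snf8* (0.92) and 2 subunits of cytochrome c oxidase, *Cox6c* (0.91) and *Cox5b* (0.91), and nearest to *Dnm1l* were *Vipas39* (0.97), *Tcp1* (0.95), and *Nck1* (0.94). The other fission gene, *Mff*, was nearest to *Bdh1* (0.92), *Uba3* (0.92), and *Eid2* (0.88). The fusion genes were nearest to *Dmwd* (0.95), *Aak1* (0.95), and *Map3k13* (0.95) for *Opa1*, to *Zmynd8* (0.95), *Tent4a* (0.94), and *Cpsf6* (0.94) for *Mfn1*, and to *5730455P16Rik* (0.94), *Map9* (0.92), and *Wdr7* (0.91) for *Mfn2*. For the other mitophagy genes they were *Fam216a* (0.85), *AV356131* (0.85), and *Paip1* (0.84) for *Pink1*, *Car11* (0.96), *Dab2ip* (0.95), and *Hid1* (0.95) for *Bnip3l*, and *Mtch2* (0.90), *Med21* (0.89), and *Manea* (0.88) for *Fundc1*. Among the 10 themselves, *Bnip3* and *Bnip3l* were the most alike (0.79), and *Mfn1* and *Fis1* the least (-0.38).

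Few other genes of the same processes passed a log2 ratio of 0.5, beside a share of all genes that was not matched for UMIs. Of a wider list of 55 genes, all in the tables, 54 had at least 20 UMIs over all cells, and 1 was higher and 0 lower by at least 0.5, against 30.3% of all genes in either direction. The median log2 ratio was -0.01, with 26 genes above and 28 below 0. Receptors and anchors of mitophagy had a median of 0.15, with 7 of 8 higher in ND6, where 56.7% of all genes were higher, and autophagy adaptors and machinery a median of -0.08, with 9 of 14 lower.

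The gene past 0.5 was *Nipsnap2*, a matrix protein that marks damaged mitochondria for autophagy, at 28.9 CPM in WT and 52.6 CPM in ND6, a log2 ratio of 0.86 (0.78 to 0.95). *Inf2*, a formin that builds actin at fission sites, had 98 and 158 UMIs, a log2 ratio of 0.48 (0.11 to 0.86) that ran from 0.09 to 1.24 over the alternatives. Lowest were *Gabarapl1*, an LC3 family protein of the autophagosome, at 177.0 and 130.6 CPM, a log2 ratio of -0.44 (-0.48 to -0.40), *Pgam5*, a mitochondrial phosphatase, at -0.43 (-0.53 to -0.33), and *Ube2n*, a ubiquitin-conjugating enzyme, at -0.39 (-0.44 to -0.34).

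**Figure D4:**
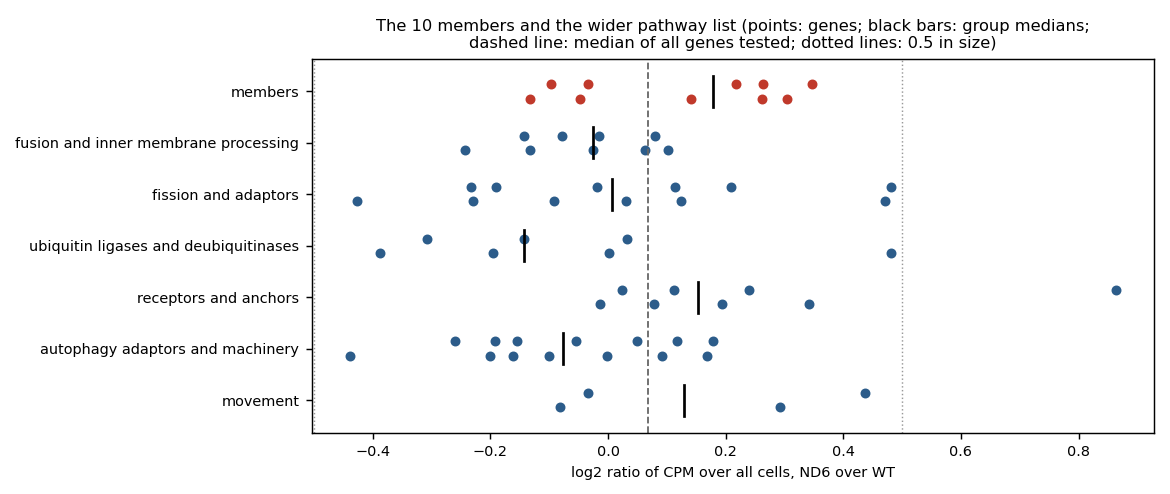
Log2 ratio of ND6 over WT CPM over all cells (horizontal axis) for the 10 genes and the 6 groups of the wider list (vertical axis). Points are genes, black bars are group medians, the dashed line is the median of all genes tested (0.07), and dotted lines mark 0.5 in size. The single point past 0.5 is *Nipsnap2* (0.86).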

How the data were processed

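The authors aligned reads to mm10 with Cell Ranger 3.0.2 and deposited raw UMI counts per gene and barcode, for all barcodes. Cell limits follow the study. The annotation and strand setting of the counting are not given in the sources used here. Both libraries were analysed alike with Scanpy 1.11.5. Counts were log-normalized, the 3000 most variable genes were centred and scaled in each library on its own, and cells were clustered by Leiden at resolution 1 (30 principal components, 20 neighbours), without the 10 genes, the wider list, and mtDNA-encoded genes. Clusters were named from marker lists when at least 3 markers of a class were raised 2-fold and 3, more than of any other class, were among the 10 leading genes, the latter 3 being set after the clusters were seen. Clusters with no class raised were named rod-like when at least 3 rod markers were raised over the other named clusters except cones. Scrublet called 0 WT cells and 1 ND6 cell and so did not work, and doublets were kept. UMIs were summed per library and class and divided by the total (CPM). Levels have exact Poisson, shares exact Clopper-Pearson, and ratios exact conditional 95% intervals. The ratio intervals were run on simulated independent Poisson counts, the model they assume. These have no clumping of UMIs within cells, so the run cannot show how often the intervals hold in these data. A ratio was called past a log2 of 0.5 between libraries (genes with at least 20 UMIs) and past 1 in the same direction in both libraries between classes. All 10 genes are named. Of the wider list, the 3 highest and 3 lowest log2 ratios with at least 200 UMIs are named, except 1 gene that is not reported here, and for likeness the 3 genes with the highest r among those with at least 500 UMIs. Gene positions come from GENCODE vM21. Members and lists were chosen with earlier results of these data known. The alternatives were other scalings, weights, minimums, cell calls, clusterings, and doublet removal.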

Additional observations from a re-analysis of the deposited data

Results flagged for a closer look

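For 3 genes the ND6 over WT log2 ratio lay above 0 in one named cell class and below 0 in another beyond counting error. How many of all genes meet this rule was not counted, so the 3 are not shown to stand out. The differences between classes were not tested, since each rests on 1 library per group. *Mfn1* was at 0.81 in amacrine-like and -0.20 in rod-like cells. Among amacrine-like cells with UMIs of both *Slc6a9* and *Gad1* or *Gad2*, it was at -1.12 (-2.54 to 0.30). *Bnip3* was at 0.37 in rod-like cells, where its level was not above that of free RNA, and -0.86 in amacrine-like cells. *Fundc1* was at 1.87 in red blood cells, from 3 WT UMIs, and -0.80 in amacrine-like cells.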

How the results depend on the processing

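No paired analysis was possible because each group has 1 library and the shared replicate number links no other samples. The cause of the changes below was not tested. Of 194 medians and counts under alternatives, 174 stayed within counting error or 1.5 times the main count. The median over all cells was 0.13 with median-of-ratios scaling, against 0.18, and the median of all genes shifted to 0.02. The counts past 0.5 that follow have no share of all genes under the same setting beside them. They are thus not read as results about these genes. The count of the wider list past 0.5 rose from 1 to 5 with cells weighted equally, 5 with no limit on mtDNA-encoded UMIs, and 3 on ranked barcodes. The count past 0.5 in bipolar-like cells became 2 with equal weights and 1 with joint scaling. With no mtDNA limit it was 2 in amacrine-like cells, 2 in macrophage/microglia-like cells, and 7 in Müller-like cells. The median of the 10 in Müller-like cells became 0.57, and that of all genes there was 0.49. This class then held 3604 WT and 2091 ND6 cells led by *Bc1* and *Glul*. With equal weights the count past 0.5 was 8 in Müller-like and 4 in macrophage/microglia-like cells. On ranked barcodes it was 1 in Müller-like, 0 in macrophage/microglia-like, and 4 in RPE-like cells. In red blood cells it was 1, where 1 gene passed the minimum and the median was -0.72, with -0.81 for all genes. Without the highest doublet scores it was 2 in macrophage/microglia-like cells. At resolution 2, amacrine-like cells had 1 gene past 1 against rod-like cells, *Fundc1* falling to 0.93 in ND6. With equal weights the genes past 1 against rod-like cells were as many but not the same: *Dnm1l* (1.33 in WT and 1.31 in ND6) in place of *Fundc1* in amacrine-like cells, and *Fundc1* (1.07 and 1.14) in place of *Mfn1* in RPE-like cells. Without thinning, 2 of 10 shares were higher in ND6, against 7, and such counts over all genes were not made. Past 0.5, 2 values changed sign: *Dnm1l* in Müller-like cells (0.45 with no mtDNA limit) and *Mfn1* in macrophage/microglia-like cells (0.00377 on ranked barcodes). Joint scaling gave no Müller-like cells. Depth limits all classes but rod-like and cone-like cells.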
